A study of Drosophila melanogaster with 2 samples.

Results

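The genes described here encode the aminoacyl-tRNA synthetases of Drosophila melanogaster. They were chosen by symbol: protein-coding genes of the Ensembl annotation BDGP6.54 (release 115) named by 1 or more amino acid codes followed by RS, with -m marking the mitochondrial enzymes. The rule found 33 of 13968 protein-coding genes, 18 cytosolic and 15 mitochondrial. Cytosolic means here only a symbol without -m. The rule found no -m gene for glutamine, glycine, histidine, lysine or threonine. Symbols alone do not show whether the enzymes for these also serve mitochondria. The alpha and beta subunit genes of the cytosolic phenylalanine enzyme carry their Greek letter first, miss the rule and are described with the partner genes.

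Aminoacyl-tRNA synthetases join each amino acid to its tRNA and so supply charged tRNA to the ribosome. In animals the cytosol and the mitochondrion mostly use enzymes from separate nuclear genes, although in mammals single genes serve both compartments for glycine and lysine. The enzymes fall into a pair of unrelated structural classes. Irbp18 is a C/EBP-type basic leucine zipper protein whose partners include Xrp1 and crc, the fly ATF4. In mammals ATF4 and its C/EBP partners are known to act on genes of amino acid supply, cytosolic synthetase genes among them, when amino acids run short.

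Binding was mapped by chromatin immunoprecipitation and sequencing (ChIP-seq) with an antibody against GFP. The single group, Irbp18-GFP embryo, held 2 biological replicates of whole embryos aged 0 to 24 h from transgenic flies with Irbp18 (CG6272) fused to eGFP. All cell types of the embryo were therefore mixed, no untagged or input library was analysed here, and the lists do not tell the tagged protein from a native partner bound with it. The transgene insertion comes from 1 strain. With 1 group there is no comparison between conditions and no test.

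The values come from peak lists on dm6. The main list is the conservative pooled list, made from both replicates, with 3426 peaks on the chromosome arms. A site is the summit of such a peak, and a gene was counted as having one when a summit lay within 500 bp of any of its annotated starts. The replicate 1 and replicate 2 lists held 2748 and 2003 arm peaks. The signal value is the authors' own value for each peak, and since its scaling is not stated it only ranks peaks within a list. The irreproducible discovery rate (IDR) measures how poorly a peak's rank recurs between the sets compared, and peaks in the thresholded lists have an IDR of at most 0.01. Ranked lists hold the candidates before that limit. The lists carry no read numbers, so the depth of the libraries is unknown, and the 2 replicates give no error on a count.

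Irbp18 sites lay at 11 of the 33 tRNA synthetase genes (33.3%), against 16.8% of all protein-coding genes. The cytosolic genes held most of them: 9 of 18 had a site (50%), against 2 of 15 mitochondrial genes (13.3%). In falling order of signal value the bound cytosolic genes were GluProRS, SerRS, IleRS, ThrRS, ArgRS, AsnRS, ValRS, AspRS and MetRS. The bound mitochondrial genes were ProRS-m and AspRS-m. These shares are a description, and the difference between the sets of genes was not tested. Both counts of members rest in part on replicate 1, as the replicate values below show.

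The sequences around the summits of their strongest peaks are shown for 6 genes, those with the highest signal values apart from SerRS. They were read from the release 6 genome of RefSeq, cover the summit with 50 bp on each side less any annotated UTR, and run 5′ to 3′ on the strand of the synthetase gene. Capitals mark TTGCAT, a word added after the windows had been read, which is part of the mammalian C/EBP-ATF composite element. The window of a weaker ThrRS peak, not shown, also holds TTGCAT.
GluProRS, chr3R:23958462-23958562, minus strand: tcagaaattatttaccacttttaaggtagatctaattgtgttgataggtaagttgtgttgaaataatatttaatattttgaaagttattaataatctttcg
IleRS, chr3L:22288465-22288565, plus strand: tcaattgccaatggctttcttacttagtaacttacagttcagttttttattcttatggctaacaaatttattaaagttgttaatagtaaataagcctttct
ThrRS, chr2L:12103445-12103545, plus strand: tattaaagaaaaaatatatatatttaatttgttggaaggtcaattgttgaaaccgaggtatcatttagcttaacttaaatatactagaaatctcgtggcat
ArgRS, chrX:15844240-15844340, minus strand: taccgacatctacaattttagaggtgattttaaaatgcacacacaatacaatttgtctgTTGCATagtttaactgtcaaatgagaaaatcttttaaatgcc
AsnRS, chr2L:19131955-19132049, minus strand: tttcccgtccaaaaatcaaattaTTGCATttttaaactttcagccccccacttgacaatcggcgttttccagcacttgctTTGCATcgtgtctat
ProRS-m, chr3L:2651915-2652015, minus strand: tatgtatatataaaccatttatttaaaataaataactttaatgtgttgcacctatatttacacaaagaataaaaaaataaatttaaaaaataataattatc

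The strongest windows were rich in A and T and none of the 4 strongest held a word that was searched. Their GC content was 22.8% at GluProRS, 22.8% at SerRS, 26.7% at IleRS and 25.7% at ThrRS. The ProRS-m window had the lowest GC content of the 13 member sites, 13.9%, and the highest was 42.6%, at the weaker of 2 ThrRS peaks. The median over the 13 windows was 30.7%, against 36.6% over the 1810 promoter sites of protein-coding genes, whose lower quartile was 29.7%. TTGCAT stood in 3 of the 13 member windows, those of ArgRS, AsnRS and the weaker ThrRS peak, against 345 of all 3426 windows (10.1%). The relaxed C/EBP words TTACNNAA and TTGCNNAA, also added later, stood in 2 of 13, against 16.7% of all windows. Both strands were read for every word, and a match describes letters only.

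The GluProRS site had the highest signal value of the 13 member sites. GluProRS (FBgn0005674) encodes 1 protein that charges both glutamate and proline tRNAs. Its peak at chr3R:23958367-23958670 had a signal value of 507, rank 166 of 3426, and its summit lay 121 bp upstream of the gene's start in intergenic sequence. Replicate 1 gave 319 and replicate 2 gave 203, each in its own thresholded list. The site lies between GluProRS and AP-1sigma, which encodes the small subunit of a clathrin adaptor and starts 139 bp from the summit on the other side.

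SerRS (FBgn0031497), the cytosolic serine enzyme, held the next site, at chr2L:3037246-3037514. It had a signal value of 386, rank 269, with 238 in replicate 1 and 154 in replicate 2. The summit lay 7 bp downstream of the nearest SerRS start, in its 5′ UTR, and was the only member summit on that side of its nearest start. The starts of SerRS and CG17260 are 8 bp apart on opposite strands, and the summit lay 15 bp from that of CG17260, so 1 peak covers both starts. The peak cannot be given to either gene.

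IleRS and ThrRS completed the sites that recurred in both replicates. IleRS (FBgn0027086), the isoleucine enzyme, had a peak at chr3L:22288437-22288614 with a signal value of 289, rank 439, and with 162 in replicate 1 and 119 in replicate 2. Its summit lay 150 bp upstream of IleRS and 320 bp from Hem, a gene of the actin-regulating WAVE complex. ThrRS (FBgn0027081), the threonine enzyme, had a peak at chr2L:12103317-12103672 with 259, rank 527, and with 161 and 88.6 in replicates 1 and 2. That summit lay 256 bp upstream of ThrRS and nearer, at 210 bp, to the start of Patsas. A second ThrRS peak, at chr2L:12103528-12103883, had a signal value of 12.4, overlapped the first by 145 bp and carried almost the same IDR, 4.17 against 4.16 as a negative decimal logarithm. No candidate of either replicate lay within 100 bp of its summit, so it is no independent second site.

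The next 3 sites recurred in replicate 1 only, within 100 bp of the pooled summit. ArgRS (FBgn0027093), the arginine enzyme, had 161 at chrX:15844112-15844467, rank 1123, 145 bp upstream of its start, with 116 in replicate 1. Replicate 2 also had a site at the ArgRS start, with a signal value of 55.7, but its summit lay 263 bp upstream and that of replicate 1 142 bp upstream. AsnRS (FBgn0086443), the asparagine enzyme, had 144 at chr2L:19131821-19132176, rank 1322, 45 bp upstream, with 93.8 in replicate 1. In replicate 2 it was a candidate of 47.9 whose IDR of 0.0357 missed the limit. ProRS-m (FBgn0027082), the mitochondrial proline enzyme, had 127 at chr3L:2651787-2652142, rank 1586, 115 bp upstream, with 88.3 in replicate 1 and a replicate 2 candidate of 49.9 at an IDR of 0.0181. These 3 promoters face the starts of CG8578, of the dynactin gene DCTN6-p27, and of Snup and CG42304, in that order.

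The 4 weakest bound genes ranked from 2575 to 3258 of the 3426 sites. ValRS (FBgn0027079), the valine enzyme, had 87.2 at chr2R:13198226-13198581, 446 bp upstream of its start and 67 bp from the histone demethylase gene Kdm4B, with 65.8 in replicate 1 and a candidate of 30.6 in replicate 2. AspRS (FBgn0002069), the cytosolic aspartate enzyme, had 64.2 at chr2R:12880022-12880377, in sequence annotated as 5′ UTR of both AspRS and Nmda1, with 48.0 in replicate 1 and a candidate of 31.8 in replicate 2. The summit lay 84 bp upstream of an internal AspRS start, 3196 bp downstream of the outermost one, and 30 bp from the start of Nmda1. Replicate 1 had a stronger AspRS site, 70.2 at an IDR of 0.000521, 450 bp upstream of an AspRS start, and the pooled candidate with the highest signal value, 75.3 at 413 bp upstream, had an IDR of 0.561. AspRS-m (FBgn0051739), the mitochondrial aspartate enzyme, had 76.7 at chr2L:16826882-16827237, 18 bp upstream, and was in neither replicate list. Its candidates had 44.2 in replicate 1 at an IDR of 0.165 and 30.4 in replicate 2 at 0.635, beside a pooled IDR of 0.00962. MetRS (FBgn0034401), the cytosolic methionine enzyme, had 55.1 at chr2R:18850468-18850823, 47 bp upstream, also in neither list. A second MetRS peak of 22.9 overlapped it by 155 bp at the same IDR and had its summit 3 bp from the start of CG15084.

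**Figure D1:**
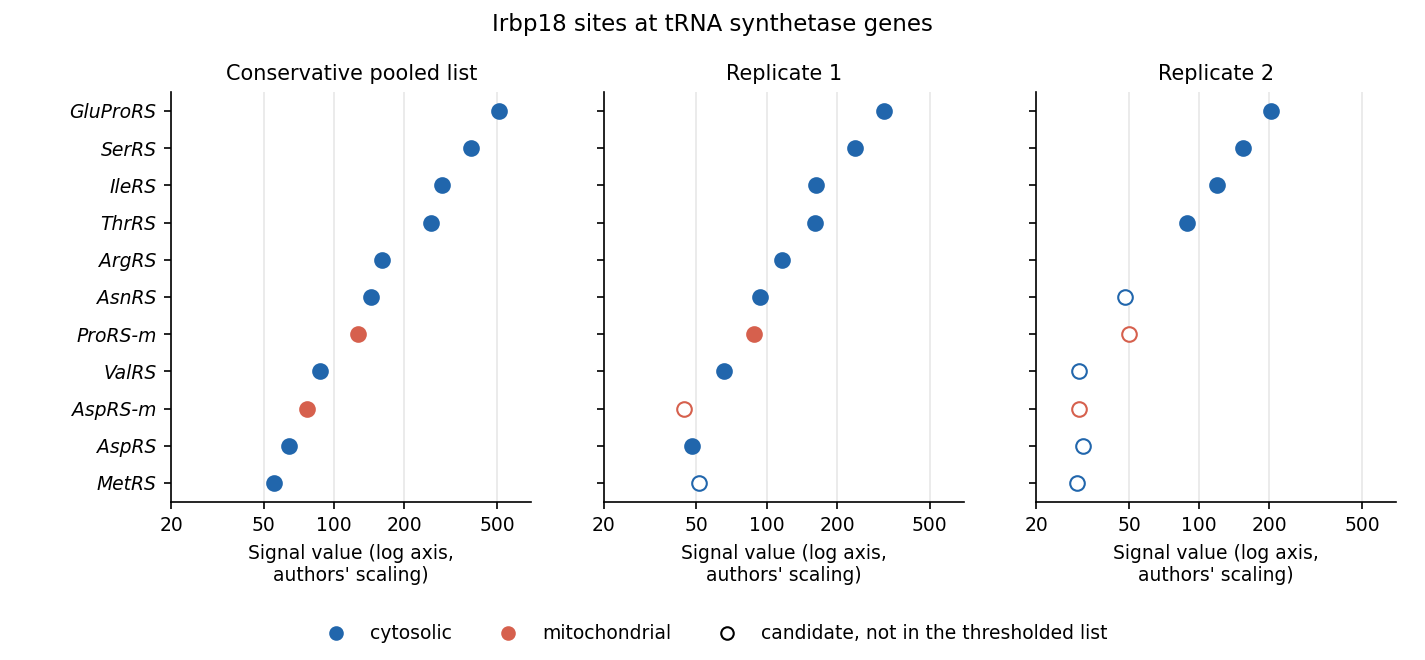
Signal value (log axis, authors' scaling) of the strongest conservative site of each of the 11 bound genes, with the replicate 1 and replicate 2 peak whose summit lay within 100 bp of it; filled points are in the thresholded list named above the panel and hollow points are ranked candidates that missed it. GluProRS, SerRS, IleRS and ThrRS are filled in all 3 panels, and ArgRS has no point under replicate 2 because its site there lay more than 100 bp from the pooled summit.

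The pooled and replicate values kept nearly the same order down the list. GluProRS was highest and SerRS next in each of the 3 lists. The 4 genes whose pooled summit matched both replicates to within 100 bp had the 4 highest pooled values. All 4 are cytosolic, 4 of the 33 members (12.1%) against 9.61% of all protein-coding genes. Counted by site, 4 of the 13 member sites matched a summit of each replicate to within 100 bp, 5 in replicate 1 only, 0 in replicate 2 only and 4 in neither. The 4 in neither include the weaker overlapping peaks of ThrRS and MetRS. Among the 1810 promoter sites of protein-coding genes, 51.3% were in both and 22.4% in neither. The replicate 1 list alone gave a site to 11 members, against 15.4% of all genes; TrpRS and CysRS-m were among them, and MetRS and AspRS-m were not. The replicate 2 list gave a site to 5 members, against 11.0% of all genes, and these 5 were cytosolic: GluProRS, SerRS, IleRS, ThrRS and ArgRS. Without replicate 1 the mitochondrial count was 0.

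By median signal value the member sites stood near the promoter sites of protein-coding genes, but with a lower first quartile. The median was 127 over 13 member sites (quartiles 64.2 and 259), against 132 over the 1810 promoter sites (quartiles 93.7 and 224). The 13 include the weaker overlapping peaks of ThrRS (12.4) and MetRS (22.9), the lowest member values. The highest member value, 507, stood beside a highest value of 2812 in the list. Of the member sites 12 of 13 (92.3%) lay upstream of the nearest synthetase start, against 80.4% of promoter sites. Their median position was 115 bp upstream, against 78.0 bp. Member positions count from the synthetase start, but at 4 member sites another protein-coding start was nearer. The member and promoter values may therefore not be like measures, and the difference was not tested. Summits fell in intergenic sequence at 10 sites and in annotated 5′ UTR at 3.

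Most synthetase promoters are shared with a neighbour. A protein-coding gene on the other strand starts within 500 bp upstream of a start of the gene, a layout called head-to-head here, at 21 of the 33 members (63.6%), against 27.3% of all protein-coding genes. It was present at 14 of 18 cytosolic genes (77.8%), against 7 of 15 mitochondrial genes (46.7%). Among head-to-head genes, 9 of 21 members had a site (42.9%), against 34.6% of all such genes. Among genes without that layout, 2 of 12 members had one (16.7%), against 10.1% of all such genes. These 2 were ValRS and AspRS-m. ValRS has Kdm4B head-to-head at 513 bp, just past the limit, and its site lay nearer to Kdm4B. The layout moves with the site count, and within each layout the members stand closer to the background than the pooled 33.3% against 16.8% does. Within the head-to-head genes the cytosolic count was 8 of 14 (57.1%), against 1 of 7 mitochondrial genes (14.3%). The part of layout in these shares was not tested.

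**Figure D2:**
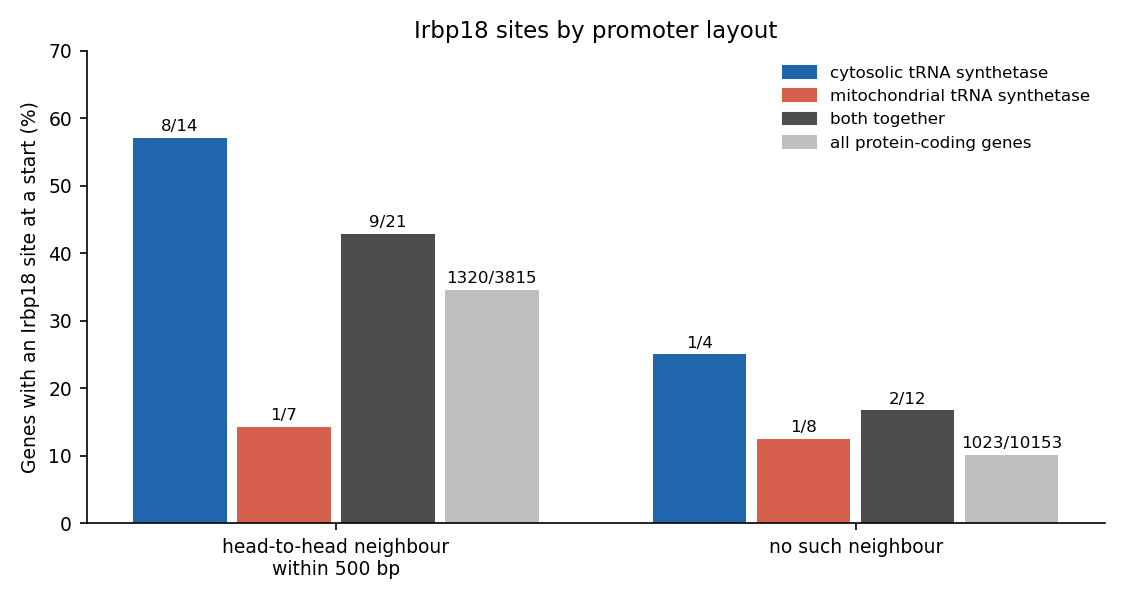
Percent of genes with an Irbp18 site within 500 bp of a start, for genes with and without a head-to-head neighbour; bars show cytosolic members, mitochondrial members, all members and all protein-coding genes, with counts above each bar. The bars of all members and all protein-coding genes are 42.9% and 34.6% on the left and 16.7% and 10.1% on the right.

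Of the 13 member sites, 12 had the start of another protein-coding gene within 500 bp, and at 4 of them that start was nearer than the member's own. The 4 were the ThrRS site of 259, the ValRS site, the AspRS site and the weaker MetRS peak. AspRS-m held the only site with no other protein-coding start within 500 bp. No such counts were made for all promoter sites. Of the 2343 protein-coding genes with a site, 1320 had a head-to-head neighbour. If each site is given to its nearest start alone, 9 members (27.3%) keep one, against 12.2% of all protein-coding genes. AspRS and ValRS are then lost. ThrRS is among the 9 through its overlapping peak of 12.4 alone, since its site of 259 is nearer to Patsas.

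**Figure D3:**
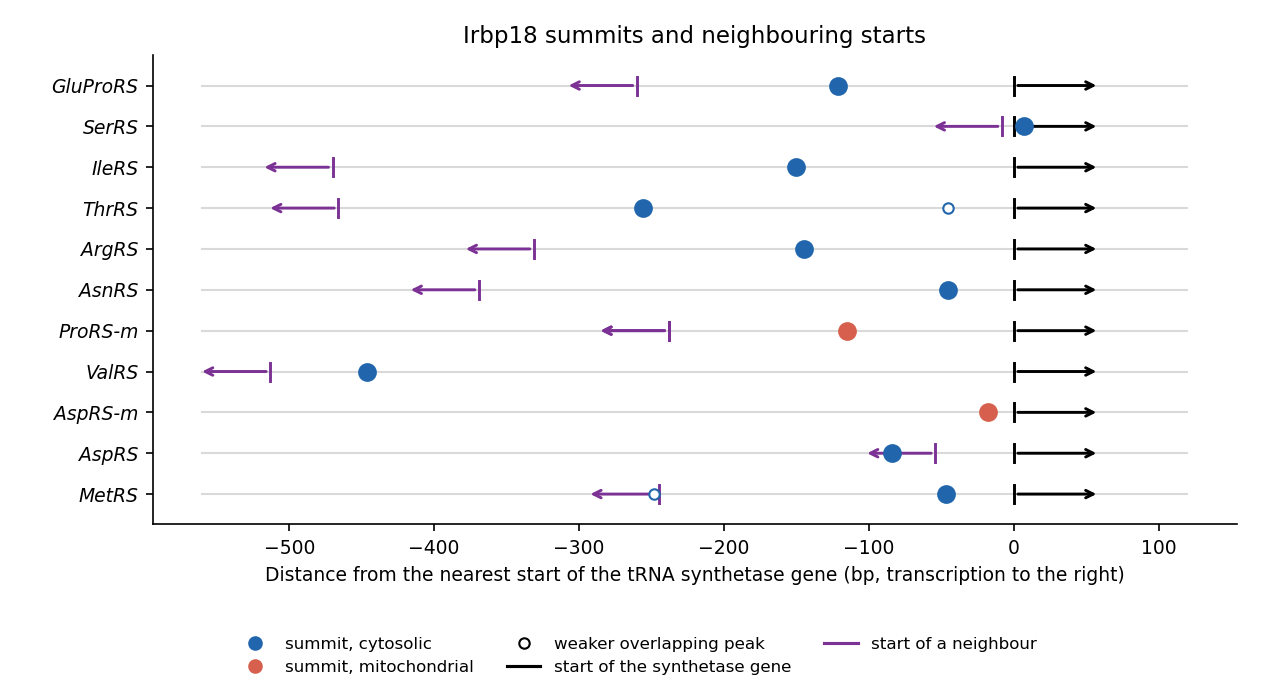
Position of each summit (circles) and of neighbouring protein-coding starts (purple) relative to the nearest start of the synthetase gene at 0, in bp with its transcription to the right; the 11 genes run from highest to lowest signal value. Except at SerRS, 7 bp downstream, every summit of a gene's strongest site lies upstream of its nearest start, and at 10 of the 11 genes a neighbour transcribed the other way starts upstream.

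For 14 amino acids the rule found a cytosolic and a mitochondrial gene, so that the 2 can be set side by side. GluProRS counts for both glutamate and proline. Both genes had a site for aspartate and proline. The cytosolic gene alone had one for 7 amino acids: arginine, asparagine, glutamate, isoleucine, methionine, serine and valine. The mitochondrial gene alone had one for 0, and neither had one for 5, namely alanine, cysteine, leucine, tryptophan and tyrosine. With a site at 2 of 15 mitochondrial genes, few pairs could show the mitochondrial gene alone. No such pair count was made for all protein-coding genes, of which 16.8% had a site. Among the cytosolic genes here, MetRS was in neither replicate list, and the ValRS site lay nearer to Kdm4B. In the pairs with both sites, AspRS-m was in neither replicate list and ProRS-m in that of replicate 1 only. The AspRS site lay nearer to Nmda1 and was in the replicate 1 list only. IleRS had a signal value of 289, and IleRS-m had 0 candidates in the conservative ranked list. AsnRS had 144, and AsnRS-m likewise had 0 candidates.

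Sites fell in each role group below, to be read beside the 16.8% of all protein-coding genes. In mammals 8 of these cytosolic enzymes travel in a multi-synthetase complex, and 5 of their 8 fly genes had a site: ArgRS, AspRS, GluProRS, IleRS and MetRS, but not GlnRS, LeuRS or LysRS. Of the other 10 cytosolic genes 4 had one: AsnRS, SerRS, ThrRS and ValRS. Sites matched to both replicates within 100 bp stood at 2 of the 8 and 2 of the 10, beside 9.61% of all protein-coding genes. By catalytic class, 4 of 18 genes of class I alone (22.2%) and 6 of 14 of class II alone (42.9%) had a site. Matched to both replicates were 1 of these 18 and 2 of these 14. GluProRS, also matched to both, joins an enzyme of each class in 1 protein.

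Most of the 22 members without a site had a candidate in the ranked list, as did most protein-coding genes. A candidate lay at a start of 30 of the 33 members, all 18 cytosolic genes and 12 of 15 mitochondrial genes, against 75.5% of all protein-coding genes. Among the 22, 19 had a candidate, with an IDR between 0.0145 and 0.843. AsnRS-m, IleRS-m and TyrRS-m had none. The nearest sites lay from 874 bp away, at LeuRS-m, to 41697 bp, at GlyRS, and 0 of the 22 had a site in the gene body.

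CysRS-m, the mitochondrial cysteine enzyme, came closest to the limit, with a signal value of 72.9, 55 bp upstream, and an IDR of 0.0145. It had a site of 49.0 in the replicate 1 list and a candidate of 27.7 in replicate 2. TrpRS, the cytosolic tryptophan enzyme, had the highest candidate signal value of any member without a site, 89.6, with its summit 2 bp upstream of the start. That value exceeded those of ValRS, AspRS-m, AspRS and MetRS, but its IDR was 0.705. Replicate 1 listed TrpRS with 64.1 at an IDR of 0.00225, and the replicate 2 candidate had 25.2 at 0.490. GlnRS had a candidate of 76.2 at an IDR of 0.556. LysRS and LeuRS, of the complex in mammals, had 57.8 and 49.5 at IDR values of 0.143 and 0.144. Among the cytosolic genes no best candidate lay between these IDR values and those of the bound genes.

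**Figure D4:**
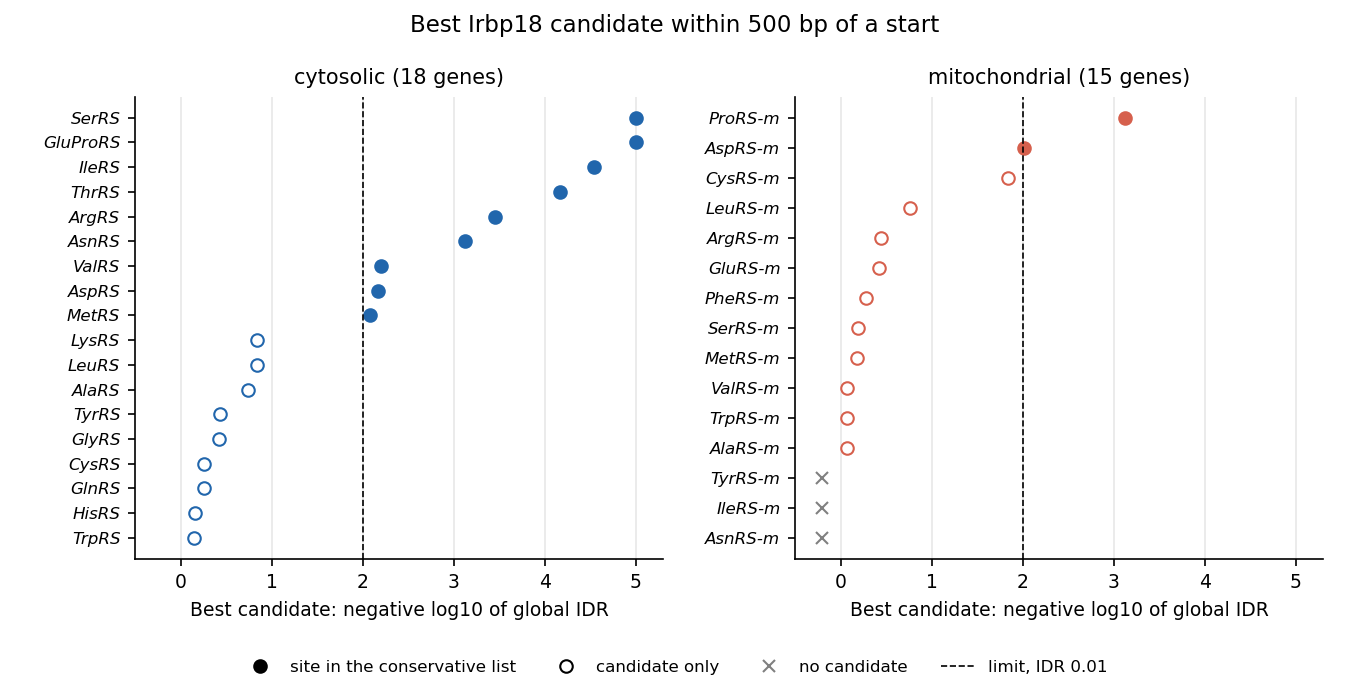
Negative decimal logarithm of the global IDR of the best candidate within 500 bp of a start, for the 18 cytosolic and 15 mitochondrial genes; filled points are in the conservative list, hollow points are candidates only, crosses mark genes with no candidate, and the dashed line is the IDR limit of 0.01. The 9 bound cytosolic genes run from 2.08 to 5.0 and the unbound ones end at 0.845, while CysRS-m lies at 1.84, just left of the line.

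Genes that act beside the synthetases gave 4 sites among 20 (20%), beside the 16.8% of all protein-coding genes. This list holds scaffold proteins, the other subunits and the elongation factors that use charged tRNA. Of the phenylalanine subunits, beta-PheRS had a site with a signal value of 114, 36 bp downstream of its start, with 62.0 in replicate 1 and a candidate of 60.9 in replicate 2, and alpha-PheRS had none. With both subunits counted as members, a choice made after the values were seen, 12 of 35 genes had a site. The 3 AIMP genes, which encode scaffold proteins of the mammalian complex, had 0 sites.

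Among 6 cytosolic elongation factor genes 2 had a site (33.3%), beside 16.8% of all protein-coding genes. Of these, eEF1gamma had 336, rank 337, and eEF1alpha1 had 148, rank 1272. Both recurred in the replicates, with 179 and 149 for eEF1gamma and 75.3 and 66.5 for eEF1alpha1 in replicates 1 and 2. eEF1alpha1 carries charged tRNA to the ribosome, and eEF1gamma belongs to the complex that reloads it with GTP. eEF2, which moves the ribosome along, was in the replicate 1 list only, with 76.9. Of 8 mitochondrial partner genes 1 had a site (12.5%), beside the same 16.8%. It was GatA, with 159, 107 bp upstream, 123 in replicate 1 and a candidate of 30.0 in replicate 2. P5cr starts head-to-head 74 bp upstream of GatA, so this summit lies nearer to the P5cr start. GatA belongs to the amidotransferase that completes glutaminyl-tRNA in mitochondria. Candidates at mEFTs and mEFTu1 had IDR values of 0.0112 and 0.0259. Gcn2, the kinase that senses uncharged tRNA, had no site.

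Of the 8 planned words, 3 stood in synthetase promoters, each at a share above that of all promoters, and 5 did not; the counts are small. In windows from 250 bp before to 50 bp after each gene's outermost start, the DRE, TATCGATA, stood in 5 of 33 members, ArgRS, IleRS, AlaRS, TrpRS and PheRS-m, against 9.36% of all promoters. The core motif GGTCACAC stood in 4 of 33, AspRS-m, ProRS-m, GlnRS and AsnRS-m, against 7.69%, and the E-box CACGTG in 2, against 4.20%. The C/EBP-ATF element in the forms TGATGCAA and TGATGTAA, the C/EBP palindrome TTGCGCAA, the PAR site TTACGTAA, the CRE TGACGTCA and the AP-1 site TGAGTCA stood in 0 of 33, against between 0.401% and 2.48% of all promoters. Within 50 bp of the summits the CRE stood in 1 member window, that of AspRS, against 4 of all 3426 windows, and GGTCACAC in 1, that of AspRS-m, against 35. The other 6 planned words stood in 0 of the 13 member windows.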

How the data were processed

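ChIP-seq of GFP-tagged Irbp18 was deposited as thresholded and ranked peak lists on dm6 for 2 biological replicates and for 2 pooled analyses, and the conservative pooled list was the main one. The aligner, the peak caller and any control used in the calls: not given in the sources used here. Deposited by the authors were a score with a ceiling of 1000, a signal value whose scaling is not stated, the −log10 of the IDR in the ranked lists, and a summit offset. Further columns, 8 in each pooled ranked list, could not be tied to a replicate and were not used. Depth is unknown.

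Summits on the arms were set against every start of protein-coding genes (BDGP6.54) with Python 3.11.15, numpy 2.4.6 and pandas 2.3.3, and figures were drawn with matplotlib 3.10.9. Positions count from the nearest start of the gene. Replicate summits within 100 bp counted as the same site. The assignment was tested on simulated data, where 200 of 200 planted summits came back with the right start and sign. Members, partner list and words were chosen with earlier results of these data known, so no test was made. All 33 members are counted, and every bound member and the unbound ones nearest to the limit are named. Of the words, 8 were planned and TTGCAT and the relaxed C/EBP words were added after the windows had been read. Separate embryo collections are not stated beyond the term biological replicate.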

Additional observations from a re-analysis of the deposited data

How the results depend on the processing

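Among the 33 members, 11 had a site. The count was 12 with the other pooled list (MetRS lost, CysRS-m and TrpRS gained), 12 at an IDR of up to 0.05, 10 within 200 bp and 12 within 1000 bp of a start, 10 with the outermost start, 9 with the nearest start only and 9 where the peak itself had to overlap a start. The shares of all protein-coding genes were, in that order, 18.0%, 21.1%, 12.4%, 19.2%, 15.2%, 12.2% and 10.3%. Those of the members were 36.4%, 36.4%, 30.3%, 36.4%, 30.3%, 27.3% and 27.3%. In the counts within 200 bp, with the nearest start and with overlap, ThrRS is held by its 12.4 peak alone. The member count was 7 (21.2%) with sites at the top score and 7 with the strongest 50% of sites, against 14.1% and 10.5% of all protein-coding genes. It was 4 with sites matched to both replicate lists within 100 bp, which leaves out ArgRS, listed in each. Leaving out a replicate gave 5 to 11 members, the 5 without replicate 1, with 5 to 9 cytosolic, 0 to 2 mitochondrial and 2 to 6 partner genes. Cytosolic genes numbered 4, mitochondrial genes 0 and partner genes 2 with sites matched to both lists within 100 bp. The mitochondrial count was 1 (6.67%) at the top score and 1 in the strongest 50%, against 14.1% and 10.5% of all protein-coding genes. The member share stayed above that of all protein-coding genes under the 12 alternatives planned, by least with sites matched to both lists (12.1% against 9.61%). The mitochondrial share lay on either side of that of all protein-coding genes. Of the 13 sites, 4 matched both replicates within 100 bp. Matched to 1 replicate only, the counts were 4 to 10: with replicate 2 alone 4 within 50 bp, 4 within 100 bp and 5 within 200 bp, and with replicate 1 alone 9, 9 and 10 at those distances. The 100 bp counts were added after seeing the data. The cause of these shifts was not tested. No paired analysis was possible because the replicates form 1 group. Counts are small, depth is unknown, no control library was analysed here, and shared promoters leave the gene behind a site unsettled.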

Other observations

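The word TTGCAT stood in the 250 bp before to 50 bp after the start of 14 of the 33 synthetase genes, against 21.5% of all 13968 protein-coding promoters. The 14 were ArgRS, AsnRS, AspRS, GlnRS, IleRS, LeuRS, LysRS, ThrRS, TrpRS, TyrRS, ArgRS-m, MetRS-m, ProRS-m and SerRS-m, and 6 of them had an Irbp18 site. One of the 6 is AspRS, whose word stands at its outermost start while its site lies 3196 bp downstream, at an internal start. The relaxed words TTACNNAA and TTGCNNAA stood in 16 of 33, against 39.9%, and 5 of the 16 had a site, AspRS again among them. Both words were added after the windows had been read, so these counts are values only.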
